A study of Mus musculus with 11 samples.

Results

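The collagen genes of the mouse liver were followed across 11 livers. A gene was taken as a collagen gene when its symbol has the form of Col, a type number, the letter a and a chain number, and when its counts summed to 10 or more over the 11 libraries. Of 55414 genes in the table, 44 had such a symbol and 38 passed the count minimum. The 38 comprised 9 fibrillar genes, the 6 chains of basement membrane collagen and 23 genes of other classes. The other classes were 6 chains of the beaded filament collagen type VI, 7 fibril-associated collagens, 2 short-chain network collagens, the anchoring fibril collagen Col7a1, 2 multiplexins, 4 transmembrane collagens and Col28a1.

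RNA was sequenced from whole liver of male Clec4f-DTR mice, a strain in which the promoter of Clec4f, a gene of Kupffer cells (the resident macrophages of the liver), drives a receptor for diphtheria toxin (DT). The controls carry this transgene too. Mice were 8 weeks old when the diets began and stayed on them for 16 weeks. Of the livers, 4 were from western diet with alcohol and serial DT injections (DT livers), 4 from the same diet and serial saline injections (saline livers), and 3 from chow (chow livers). No chow-fed mice given DT and no western diet mice without alcohol were analysed here, so DT was compared on 1 diet only.

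Collagens are trimers of alpha chains, each chain coded by its own gene. Fibrillar types I, III and V form the banded fibres of scar tissue, type IV forms the sheet-like network of basement membranes, and type VI forms beaded filaments around cells. In the liver, type I and III chains are made mainly by stellate cells and portal fibroblasts, while hepatocytes are a known source of type XVIII collagen, whose C-terminal fragment is endostatin.

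The libraries held 43995217 to 58089531 counts each, and 3 counts, taken as the limit of detection, came to 0.0516 to 0.0682 CPM (counts scaled to library size). Levels are CPM with TMM scaling. A gene rose, fell or was called when the Benjamini-Hochberg adjusted p of edgeR's quasi-likelihood test over 17038 genes was below 0.05. Clec4f stood at 6.18 to 15.2 CPM in DT livers, against 43.1 to 49.1 CPM in saline livers and 37.1 to 50.3 CPM in chow livers, and all 5 Kupffer cell markers fell in DT against saline livers. Alb, the hepatocyte transcript for albumin, was at 47582 to 80325 CPM over the 11 livers, so the libraries hold the hepatocyte RNA of whole liver. DT liver 2 stood apart from DT livers 1, 3 and 4 and lay beside the saline livers on the first principal component, which held 75.9% of the variance. Results are therefore given liver by liver, and where they rest on this liver also without it. Nothing in the labels gives a reason to remove it.

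Of the 38 collagen genes, 34 had enough counts to be tested. Col17a1, Col28a1, Col6a4 and Col9a2 did not, with 22 to 68 counts over all livers and at most 0.326 CPM in any liver. Among the 6 genes below the minimum, Col10a1, Col11a1, Col26a1 and Col2a1 had 0 counts, Col19a1 had 2 and Col9a1 had 4. Transcripts of the cartilage collagen type II were thus not detectable at this depth. Col22a1 entered the test through the DT livers alone, being under the filter's 0.190 CPM in every saline and chow liver. The filter asks for this level in 3 libraries. Col6a5, Col8a2 and Col9a3 reached it in fewer than 3 saline and chow livers, so they too passed only with the DT livers.

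Promoter sequences of the family are shown first, since the chains that moved together include pairs that face each other on the genome. RefSeq (GRCm38.p6) start sites were found for 31 of the 38 genes, giving 33 windows of 250 bases upstream of the start. Col4a1 and Col4a2 lie head to head on opposite strands, with start sites 21 bases apart, and Col4a5 and Col4a6 lie head to head with start sites 1343 bases apart. The 6 windows printed here hold no annotated exon and belong to genes from each side of the results: the fibrillar genes Col3a1 and Col5a1, which rose in DT livers, Col24a1, which fell, the basement membrane gene Col4a6, which had the highest fold change, the beaded filament gene Col6a3, and Col7a1, which was called in both comparisons. Each runs 5′ to 3′ towards the start site on the strand of the gene, and capitals mark matches on either strand to 4 short motifs, none of which contains another. They are the TATA box, searched as TATAAA, the box read by the factor NF-Y, searched as CCAAT, the GC box read by Sp1, searched as GGGCGG, and the core of the SMAD-binding element, searched as CAGAC.
Col3a1 (chr1:45311288-45311537, plus strand): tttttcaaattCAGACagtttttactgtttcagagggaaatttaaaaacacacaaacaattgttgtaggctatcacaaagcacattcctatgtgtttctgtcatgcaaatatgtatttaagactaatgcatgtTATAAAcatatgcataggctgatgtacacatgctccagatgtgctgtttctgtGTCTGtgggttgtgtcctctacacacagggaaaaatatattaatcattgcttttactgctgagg
Col5a1 (chr2:27886175-27886424, plus strand): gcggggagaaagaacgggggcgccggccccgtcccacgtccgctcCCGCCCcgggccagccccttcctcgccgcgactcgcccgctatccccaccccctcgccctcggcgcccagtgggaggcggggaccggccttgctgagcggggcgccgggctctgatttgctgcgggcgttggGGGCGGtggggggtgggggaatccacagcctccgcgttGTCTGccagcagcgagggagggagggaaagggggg
Col24a1 (chr3:145292222-145292471, plus strand): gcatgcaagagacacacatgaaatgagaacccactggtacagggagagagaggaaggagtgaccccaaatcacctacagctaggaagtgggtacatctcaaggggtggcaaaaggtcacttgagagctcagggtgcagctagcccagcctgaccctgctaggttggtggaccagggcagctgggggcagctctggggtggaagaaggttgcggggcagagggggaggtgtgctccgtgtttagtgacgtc
Col4a6 (chrX:141474077-141474326, minus strand): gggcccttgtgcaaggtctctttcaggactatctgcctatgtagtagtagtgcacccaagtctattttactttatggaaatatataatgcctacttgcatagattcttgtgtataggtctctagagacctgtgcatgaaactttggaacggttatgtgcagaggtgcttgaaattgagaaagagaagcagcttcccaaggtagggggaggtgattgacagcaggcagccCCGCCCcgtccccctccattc
Col6a3 (chr1:90843972-90844221, minus strand): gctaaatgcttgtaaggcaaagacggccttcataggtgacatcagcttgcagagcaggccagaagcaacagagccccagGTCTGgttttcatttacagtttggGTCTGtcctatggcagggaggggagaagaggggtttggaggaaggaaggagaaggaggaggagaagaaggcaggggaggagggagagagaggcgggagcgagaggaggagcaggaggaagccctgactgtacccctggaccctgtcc
Col7a1 (chr9:108953336-108953585, plus strand): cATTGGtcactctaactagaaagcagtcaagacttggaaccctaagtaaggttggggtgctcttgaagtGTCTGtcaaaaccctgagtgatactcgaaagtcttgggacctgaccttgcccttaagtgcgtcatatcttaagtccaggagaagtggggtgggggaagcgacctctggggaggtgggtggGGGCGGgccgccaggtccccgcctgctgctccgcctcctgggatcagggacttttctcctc

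The GC box was found in 21 of the 33 collagen windows (63.6%), against 32.7% of all 32851 windows of the table. The other motifs were about as frequent as in the table as a whole. TATAAA was in 4 of 33 (12.1%) against 12.4%, CCAAT in 11 (33.3%) against 33.8%, and CAGAC in 14 (42.4%) against 42.2%. Col3a1 was the only one of the 6 printed genes with a TATAAA match, at 117 bases before the start, and Col24a1 had no match to any of the 4. A match describes the letters and shows no binding.

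The first comparison asked what serial DT injections changed in the livers of mice on western diet with alcohol. Collagen transcripts rose across nearly all classes: 23 of the 34 tested genes rose, Col24a1 fell, and 10 were not called. All 6 basement membrane chains, all 5 tested type VI chains, 6 of 9 fibrillar genes, 4 of 6 fibril-associated genes, Col7a1 and Col8a2 rose, while no multiplexin or transmembrane collagen did. The share called was 70.6%, against 21.9% of all tested genes in either direction, 14.3% that rose and 7.62% that fell. Among the 23, Col22a1, Col6a5, Col8a2 and Col9a3 passed the filter only with the DT livers, which favours a rise. The median log2 fold change of the 34 genes was 1.93, against 0.02 over all genes. DT and saline livers did not overlap for 13 of the 23 genes that rose, for Col23a1, which was higher but not called, and for Col24a1, where 9.33% of all genes were separated with higher and 9.97% with lower values in DT livers. In bulk RNA, more cells of a type and more RNA per cell cannot be told apart.

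**Figure D1:**
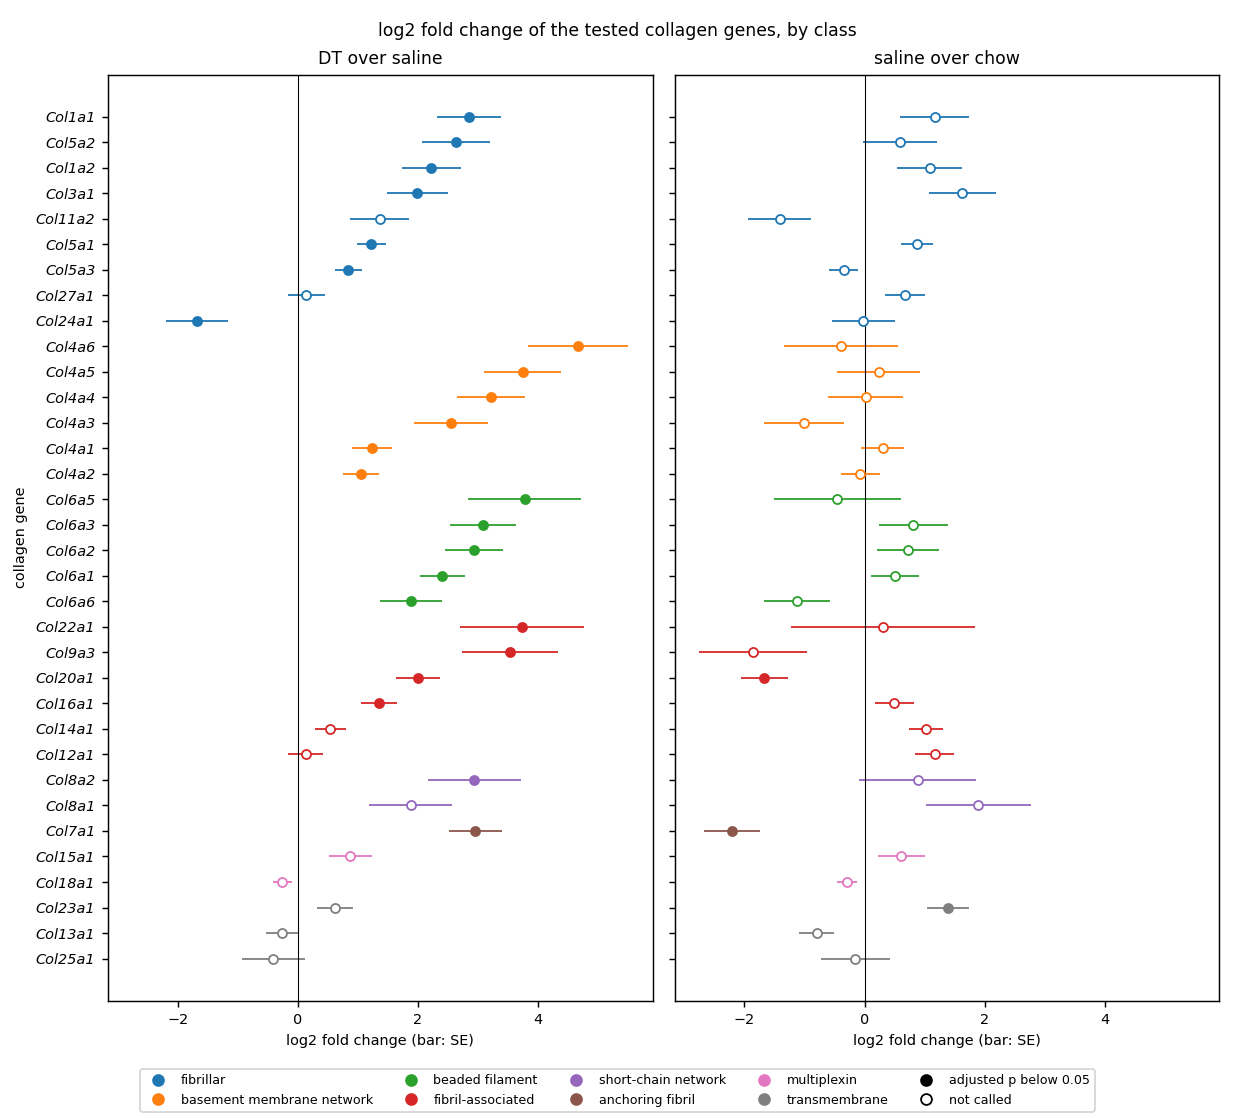
The log2 fold change of each tested collagen gene is plotted with its SE, DT over saline on the left and saline over chow on the right, grouped by class, with filled points for genes called at an adjusted p below 0.05. On the left 24 points are filled, 23 of them to the right of 0, and on the right 3 are filled.

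Among the fibrillar genes, Col1a1 and Col1a2 code for the 2 chains of type I collagen, the main collagen of scars. Col1a1 stood at 70.7, 11.2, 76.2 and 94.2 CPM in the DT livers, against 6.85, 5.57, 14.9 and 7.84 CPM in the saline livers and 3.24, 4.71 and 3.78 CPM in the chow livers. DT livers 1, 3 and 4 were far above all others, and DT liver 2 lay within the range of the saline livers. The mean was 63.1 ± 36.0 CPM in DT livers and 8.79 ± 4.17 CPM in saline livers (SD, n = 4 each), a log2 fold change of 2.84 (SE 0.53, edgeR adjusted p = 0.00766). Col1a2 stood at 67.7, 12.8, 72.0 and 88.9 CPM in the DT livers, against 12.4, 8.14, 21.1 and 10.1 CPM in the saline livers and 3.91, 7.65 and 6.74 CPM in the chow livers. It rose by 2.22 (SE 0.50, edgeR adjusted p = 0.0123), again with DT liver 2 inside the saline range. Type III collagen, coded by Col3a1, makes thinner fibrils that mix with type I. Col3a1 stood at 174, 27.2, 101 and 140 CPM in the DT livers, against 20.1, 21.0, 52.5 and 17.8 CPM in the saline livers and 7.42, 12.3 and 7.36 CPM in the chow livers. Its log2 fold change of 1.99 (SE 0.51, edgeR adjusted p = 0.0192) was the least secure of the 3, since the call ended in 5 of 11 refits without 1 liver, with an adjusted p of up to 0.0618 without saline liver 2.

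Type V collagen sits inside type I fibrils and starts their assembly. Col5a1 stood at 22.6, 11.7, 23.9 and 27.1 CPM in the DT livers, against 8.17, 9.38, 11.6 and 7.37 CPM in the saline livers and 3.99, 5.79 and 5.17 CPM in the chow livers. Every DT liver was above every saline liver, though DT liver 2 only just above saline liver 3, and every saline liver was above every chow liver. Its log2 fold change was 1.22 (SE 0.24, edgeR adjusted p = 0.00875). Col5a2 stood at 21.7, 3.20, 21.5 and 17.3 CPM in the DT livers, against 2.16, 1.79, 5.08 and 1.19 CPM in the saline livers, and rose by 2.64 (SE 0.57, edgeR adjusted p = 0.0109), with DT liver 2 inside the saline range. Col5a3, another type V chain, behaved differently across the groups. It stood at 46.5, 60.1, 49.4 and 77.2 CPM in the DT livers, against 20.6, 39.8, 42.1 and 27.9 CPM in the saline livers and 40.0, 47.6 and 36.7 CPM in the chow livers. Its rise of 0.84 (SE 0.23, edgeR adjusted p = 0.0239) was shared by DT liver 2, but DT livers overlapped chow livers, and the call ended in 3 of 11 refits without 1 liver.

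None of the other fibrillar genes was called higher. Col24a1, a minor fibrillar collagen, was the only collagen gene that fell. It stood at 0.0597, 0.0832, 0.113 and 0.159 CPM in the DT livers, against 0.204, 0.244, 0.402 and 0.511 CPM in the saline livers and 0.155, 0.368 and 0.508 CPM in the chow livers. The groups DT and saline did not overlap (log2 fold change -1.68, SE 0.52, edgeR adjusted p = 0.0394), but these values are 4 to 12 counts in a DT liver and 10 to 24 in a saline liver, and the call ended in 7 of 11 refits without 1 liver, with an adjusted p of up to 0.109, and under total count scaling, limma-voom and no filter. Col27a1 ranged from 11.7 to 36.6 CPM in DT livers and from 15.4 to 29.3 CPM in saline livers, with a log2 fold change of 0.14 (SE 0.30). Col11a2 ranged from 0.478 to 1.86 CPM in DT livers and from 0.203 to 0.724 CPM in saline livers and was not called (1.36, SE 0.49, edgeR adjusted p = 0.0658).

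**Figure D2:**
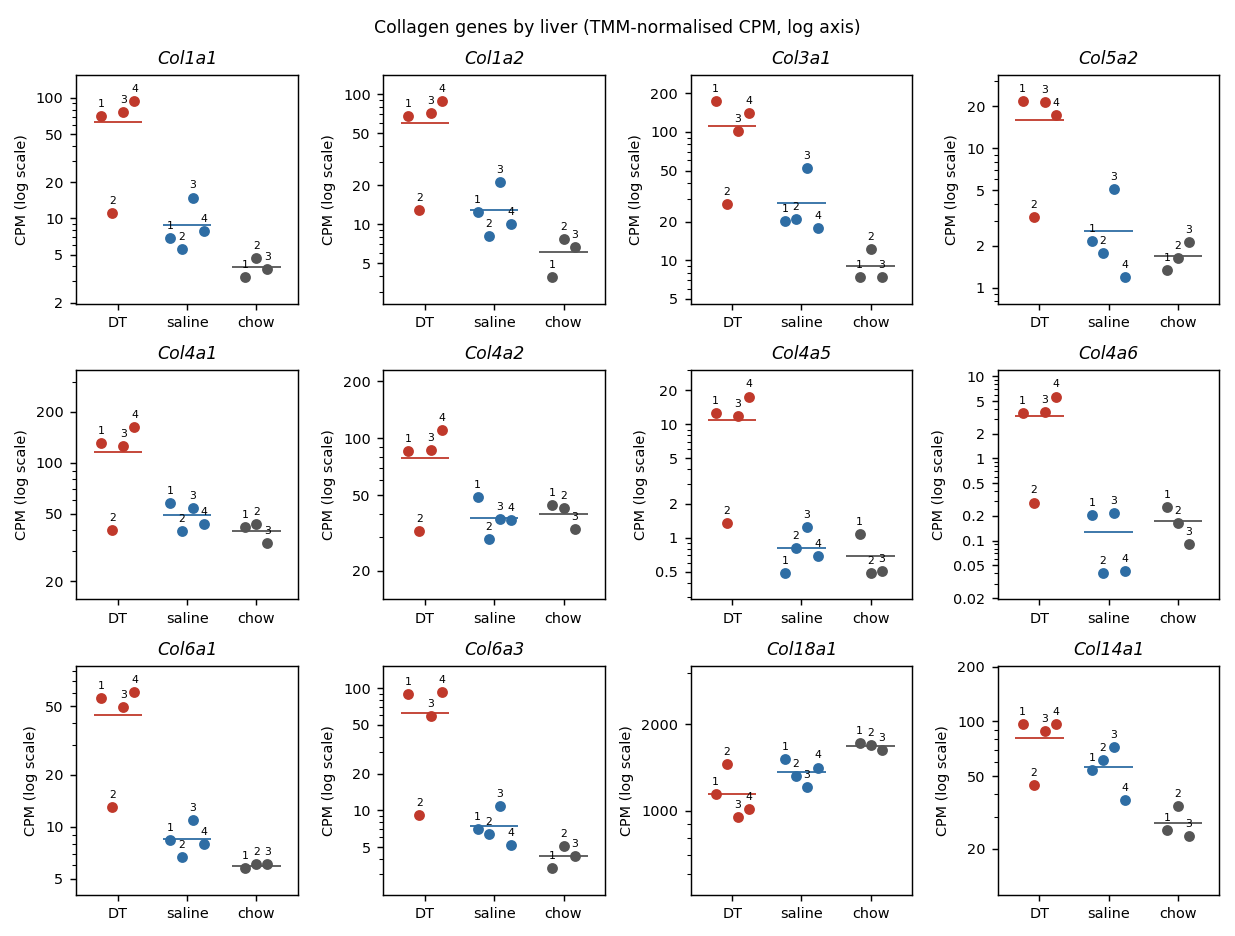
CPM on a log axis is plotted for 12 collagen genes, with 1 numbered point per liver and a line at the mean of the DT, saline and chow groups. DT livers 1, 3 and 4 stand above the rest for Col1a1, Col4a5 and Col6a3, DT liver 2 lies near the saline livers in most panels, and Col18a1 runs the other way, with chow livers highest at 1621 to 1718 CPM.

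Type IV collagen is built as several kinds of trimer. The broadly expressed chains Col4a1 and Col4a2 join each other, Col4a3, Col4a4 and Col4a5 form the network known from kidney and lung, and Col4a5 joins Col4a6 in the basement membranes of some epithelia and of smooth muscle. All 6 chains rose, at very different levels. Col4a1 stood at 131, 40.3, 126 and 164 CPM in the DT livers, against 58.2, 39.8, 54.1 and 43.9 CPM in the saline livers and 42.1, 43.7 and 33.8 CPM in the chow livers. Col4a2 stood at 86.1, 32.3, 86.9 and 110 CPM in the DT livers, against 48.7, 29.3, 37.4 and 37.0 CPM in the saline livers and 44.3, 42.6 and 33.1 CPM in the chow livers. For both of these chains DT liver 2 was below 3 of the 4 saline livers. The rises were 1.23 (SE 0.33, edgeR adjusted p = 0.0217) for Col4a1 and 1.05 (SE 0.30, edgeR adjusted p = 0.0292) for Col4a2. Without DT liver 4 the adjusted p was 0.0737 for Col4a1 and 0.0951 for Col4a2, and without DT liver 2 it was 3.54e-05 and 0.00016. Both calls also ended with limma-voom (adjusted p = 0.0586 and 0.0648) and with no filter.

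The minor type IV chains were scarce in saline and chow livers. Col4a5 stood at 12.6, 1.35, 11.8 and 17.6 CPM in the DT livers, against 0.489, 0.814, 1.24 and 0.681 CPM in the saline livers and 1.08, 0.491 and 0.508 CPM in the chow livers. Col4a6 stood at 3.55, 0.291, 3.67 and 5.67 CPM in the DT livers, against 0.204, 0.0407, 0.219 and 0.0426 CPM in the saline livers and 0.258, 0.164 and 0.0923 CPM in the chow livers. For this head-to-head pair the groups did not overlap, with DT liver 2 just above the highest saline liver each time. The log2 fold changes were 3.74 for Col4a5 (SE 0.64, edgeR adjusted p = 0.00624) and 4.66 for Col4a6 (SE 0.83, edgeR adjusted p = 0.00678), the largest of the family, although a saline liver held only 2 to 12 counts of Col4a6. Col4a4 stood at 3.79, 0.666, 4.90 and 6.61 CPM in the DT livers, against 0.285, 0.468, 0.329 and 0.639 CPM in the saline livers, a log2 fold change of 3.21 (SE 0.57, edgeR adjusted p = 0.00673). Col4a3 ranged from 0.333 to 3.68 CPM in DT livers and from 0.203 to 0.639 CPM in saline livers, a log2 fold change of 2.55 (SE 0.62, edgeR adjusted p = 0.0169). Exons of Col4a3 share 563 bases with the opposite-strand gene C430014B12Rik, and the strand setting of the counting is not stated, so part of its 732 counts could be from that gene. The rises of Col4a4, Col4a5 and Col4a6 were called in all 11 refits without 1 liver, but limma-voom ended the calls on Col4a6 (adjusted p = 0.0630) and Col4a3 (adjusted p = 0.0675).

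Type VI collagen is assembled from Col6a1, Col6a2 and one of several longer chains, of which Col6a3 is the common one. The 3 main chains moved together. Col6a1 stood at 56.3, 13.1, 49.4 and 60.6 CPM in the DT livers, against 8.40, 6.65, 11 and 7.92 CPM in the saline livers and 5.74, 6.10 and 6.05 CPM in the chow livers. Col6a2 stood at 40.5, 6.95, 34.0 and 50.2 CPM in the DT livers, against 3.87, 2.99, 6.73 and 3.71 CPM in the saline livers and 2.94, 2.58 and 2.38 CPM in the chow livers. Col6a3 stood at 89.5, 9.22, 59.2 and 93.0 CPM in the DT livers, against 7.05, 6.45, 10.9 and 5.24 CPM in the saline livers and 3.35, 5.14 and 4.20 CPM in the chow livers. DT and saline livers did not overlap for Col6a1 and Col6a2, while for Col6a3 DT liver 2 fell between saline livers. The log2 fold changes were 2.40 (SE 0.37, edgeR adjusted p = 0.00481) for Col6a1, 2.93 (SE 0.48, edgeR adjusted p = 0.00577) for Col6a2 and 3.08 (SE 0.55, edgeR adjusted p = 0.00678) for Col6a3, each called in all 11 refits without 1 liver. The alternative long chains Col6a5 and Col6a6 were at 0.250 to 2.94 CPM and 0.583 to 3.10 CPM in DT livers, against 0.0407 to 0.256 CPM and 0.265 to 0.768 CPM in saline livers. They rose by 3.77 (SE 0.94) and 1.88 (SE 0.52), but the call was kept in only 8 of 11 refits for Col6a5 and 6 of 11 for Col6a6, and limma-voom ended both (adjusted p = 0.0660 and 0.0559).

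Fibril-associated collagens bind to the surface of fibrils, and here they split. Col14a1 was the most abundant of them and Col12a1 is its close relative. Col14a1 stood at 96.5, 44.7, 88.5 and 96.4 CPM in the DT livers, against 53.9, 61.2, 72.6 and 36.9 CPM in the saline livers and 25.2, 34.1 and 23.4 CPM in the chow livers. DT livers 1, 3 and 4 were above all saline livers and DT liver 2 was within them, so the difference of 0.54 (SE 0.26, edgeR adjusted p = 0.148) was not called, and it was 0.74 (adjusted p = 0.0132) without DT liver 2. Col12a1 ranged from 3.47 to 5.46 CPM in DT livers and from 2.85 to 5.98 CPM in saline livers, with a log2 fold change of 0.13 (SE 0.29). Col16a1 rose, at 8.46, 4.04, 9.06 and 10.8 CPM in the DT livers, against 2.73, 3.09, 3.80 and 3.11 CPM in the saline livers (log2 fold change 1.35, SE 0.30, edgeR adjusted p = 0.0119).

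The remaining fibril-associated genes were scarce but rose without overlap. Col20a1 stood at 2.13, 0.707, 1.38 and 1.10 CPM in the DT livers, against 0.346, 0.224, 0.439 and 0.319 CPM in the saline livers and 0.953, 1.04 and 1.20 CPM in the chow livers. DT livers were thus above saline livers (2.00, SE 0.37, edgeR adjusted p = 0.00727) but spread around the chow livers. Col9a3 stood at 0.687, 0.166, 0.466 and 0.623 CPM in the DT livers, against 0.0408, 0, 0.0366 and 0.0852 CPM in the saline livers (3.53, SE 0.80, edgeR adjusted p = 0.0126), where a saline liver held 0 to 4 counts. Col22a1 had 46, 4, 16 and 12 counts in the DT livers, against 0, 2, 2 and 0 in the saline livers and 2, 0 and 0 in the chow livers. Its call (edgeR adjusted p = 0.0258) rests on these few counts and was made in 5 of the 8 refits that kept the gene.

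Col7a1 codes for the anchoring fibrils that tie epithelial basement membranes to the matrix below. It stood at 0.418, 0.375, 0.706 and 0.716 CPM in the DT livers, against 0.0815, 0.0814, 0.0732 and 0.0426 CPM in the saline livers and 0.309, 0.450 and 0.231 CPM in the chow livers. All 4 DT livers, liver 2 included, were above all saline livers, and they overlapped the chow livers. The log2 fold change of 2.95 (SE 0.44, edgeR adjusted p = 0.00433) had the lowest adjusted p of the family, on 18 to 54 counts in a DT liver and 2 to 4 in a saline liver. The short-chain collagens Col8a1 and Col8a2 form the hexagonal lattice of type VIII collagen, known from vessel walls and the cornea. Col8a2 stood at 0.925, 0.874, 1.07 and 1.51 CPM in the DT livers, against 0, 0.285, 0.0732 and 0.213 CPM in the saline livers (2.93, SE 0.77, edgeR adjusted p = 0.0216), with no overlap. Col8a1 stood at 2.15, 0.375, 2.40 and 2.62 CPM in the DT livers, against 0.326, 0.773, 0.402 and 0.554 CPM in the saline livers, and missed the threshold (1.88, SE 0.69, edgeR adjusted p = 0.0707) with DT liver 2 inside the saline range.

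The multiplexins and transmembrane collagens were not called. Col18a1 was the most abundant collagen transcript of every liver. It stood at 1142, 1449, 948 and 1013 CPM in the DT livers, against 1513, 1324, 1206 and 1412 CPM in the saline livers and 1718, 1692 and 1621 CPM in the chow livers. The difference between DT and saline livers was -0.26 (SE 0.16, edgeR adjusted p = 0.245) under TMM scaling and 0.05 under total count scaling, so it has no settled sign. Col15a1, the other multiplexin, stood at 16.4, 10.5, 20.4 and 28.9 CPM in the DT livers, against 10.7, 8.09, 8.29 and 14.5 CPM in the saline livers (0.87, SE 0.35, edgeR adjusted p = 0.0921). Col13a1, a transmembrane collagen of cell junctions, stood at 5.99, 13.0, 6.23 and 4.75 CPM in the DT livers, against 10.8, 7.99, 8.74 and 8.37 CPM in the saline livers and 16.6, 13.3 and 16.9 CPM in the chow livers. DT livers 1, 3 and 4 were below every saline liver and DT liver 2 above them (-0.26, SE 0.27, edgeR adjusted p = 0.50), a difference that total count scaling turned to 0.01. Col23a1 was at 1.40, 0.957, 1.03 and 1.27 CPM in the DT livers, against 0.856, 0.854, 0.439 and 0.894 CPM in the saline livers (0.62, SE 0.30), and Col25a1 at 0.0416 to 0.224 CPM in DT livers, against 0.122 to 0.325 CPM in saline livers (-0.41, SE 0.53).

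DT liver 2 set much of the spread. Of the 23 genes that rose, 13 were above all saline livers in DT liver 2, against 23 in each of DT livers 1, 3 and 4. The 10 that were not included Col1a1, Col1a2, Col3a1, Col4a1, Col4a2 and Col6a3. Without DT liver 2, 30 of 34 collagen genes were called, 27 higher and 3 lower, with 40.3% of all genes called, and Col18a1 (-0.40, adjusted p = 0.0210) and Col13a1 (-0.67, adjusted p = 0.00550) were then among those that fell. Of the 24 calls made with all livers, 14 were kept in all 11 refits without 1 liver. With limma-voom 17 of the 34 genes were called, all of them higher, a share of 50% against 18.2% of all genes. Saline liver 3 was the highest saline liver for 17 of the 34 genes.

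**Figure D3:**
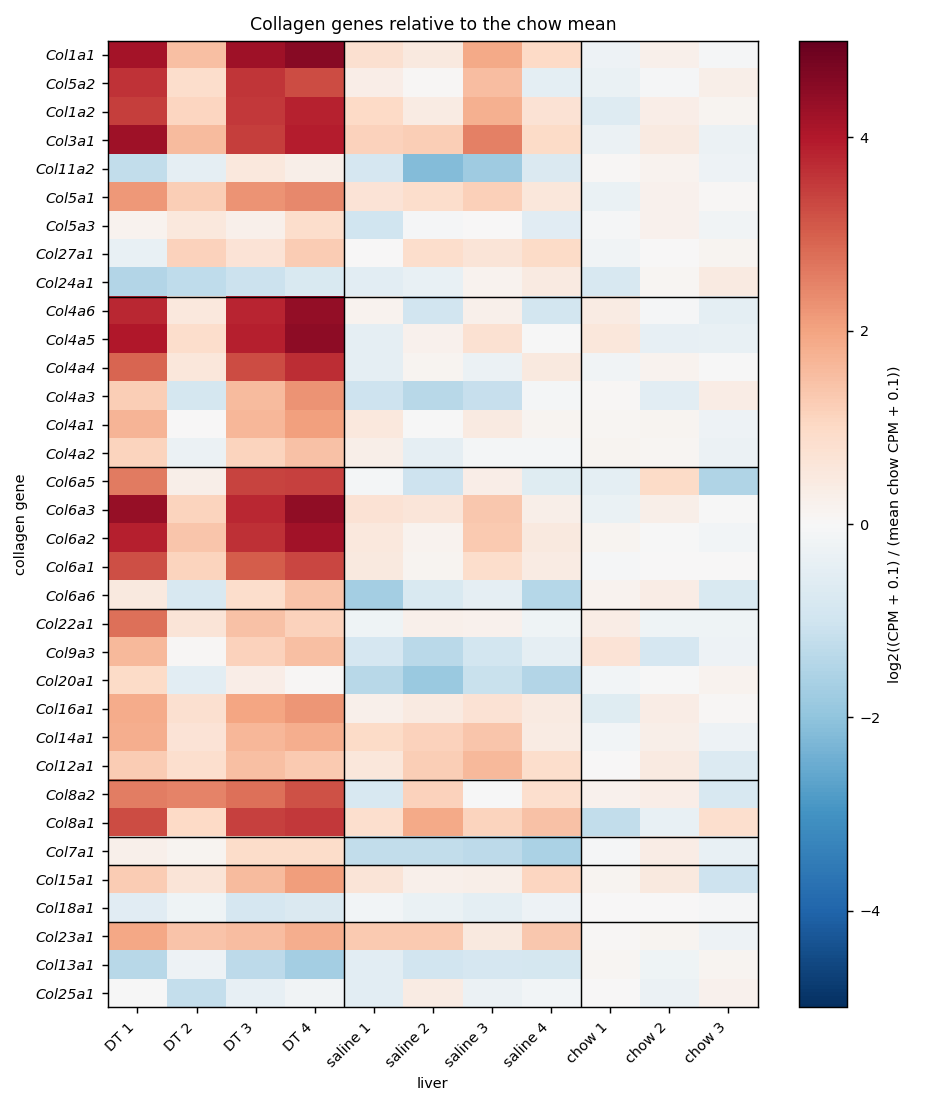
Each tile is log2 of a liver's CPM plus 0.1 over the mean chow CPM plus 0.1, with the 34 tested collagen genes as rows by class and the DT, saline and chow livers as columns from left to right. Tiles run from -2.15 to 4.56, and the strongest reds lie in DT livers 1, 3 and 4 for Col1a1, Col1a2, Col3a1, Col5a2, the main type VI chains and Col4a4 to Col4a6.

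The make-up of the collagen transcripts was then compared per exon length, as CPM per kb, since levels of different genes can be compared only on that scale. Col18a1 made up 56.3%, 81.6%, 53.8% and 49.2% of collagen CPM per kb in the DT livers, against 76.9% to 84.7% in the saline livers and 86.7% to 88.6% in the chow livers. The fibrillar class made up 16.2%, 7.43%, 16.8% and 18.8% in the DT livers, against 3.75% to 8.65% in the saline livers and 3.34% to 4.26% in the chow livers. Type VI chains made up 8.84%, 1.85%, 8.30% and 9.65% in the DT livers, against 1.10% to 1.95% in the saline livers and 0.752% to 0.841% in the chow livers. In each of these cases DT livers 1, 3 and 4 stood outside the saline range and DT liver 2 inside it. The basement membrane class made up 11.6%, 4.20%, 13.1% and 14.7% in the DT livers, against 4.38% to 5.98% in the saline livers and 3.74% to 4.55% in the chow livers. Here DT liver 2 was just below the saline range. Summed over all collagen genes but Col18a1, the level was 126, 46.4, 116 and 149 CPM per kb in the DT livers, against 36.2 to 51.7 in the saline livers and 29.8 to 36.9 in the chow livers.

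Within the same scale, Col18a1 led in every group, with a mean of 162 ± 31.7 CPM per kb in DT livers, 194 ± 18.6 in saline livers and 239 ± 7.16 in chow livers (SD, n = 4, 4 and 3). The next places in DT livers were held by Col4a1 (15.4 ± 7.07), Col4a2 (11.9 ± 5.0), Col14a1 (11.6 ± 3.54) and Col3a1 (11.3 ± 6.43), with overlapping SDs. In chow livers they were held by Col5a3 (6.08 ± 0.817), Col4a2 (6.04 ± 0.915) and Col4a1 (5.34 ± 0.713), also with overlapping SDs, followed by Col14a1 (3.94 ± 0.815). These SDs are between livers and cannot rank genes measured in the same livers. The order of the genes within livers was not tested. Col1a1 averaged 9.61 ± 5.49 CPM per kb in DT livers and 0.596 CPM per kb in chow livers.

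**Figure D4:**
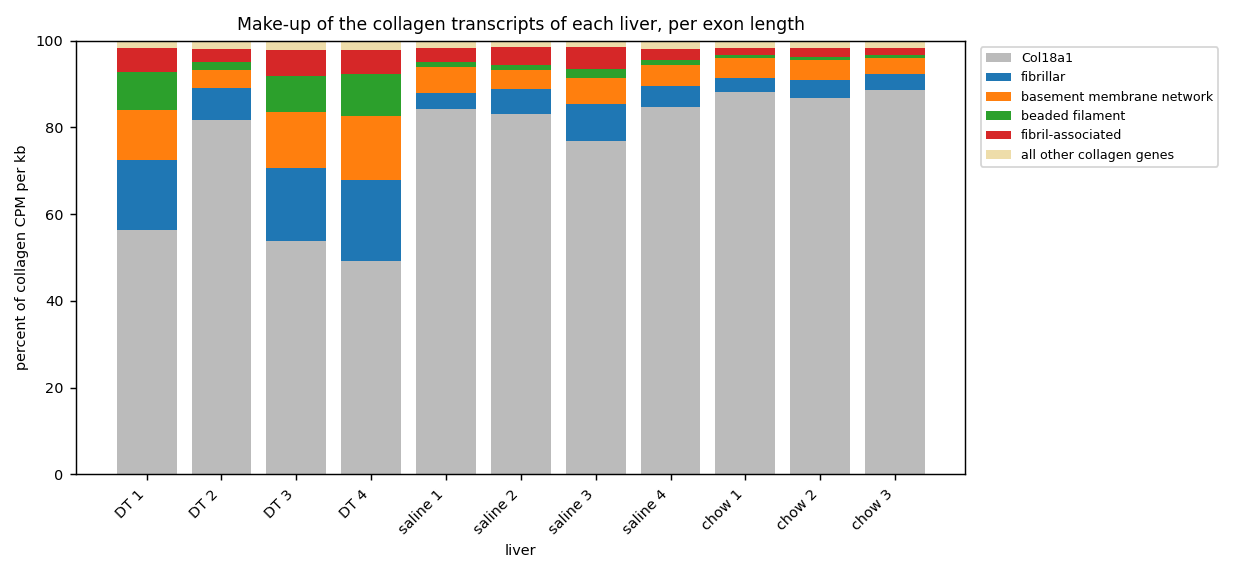
Stacked bars give the percent of each liver's collagen CPM per kb held by Col18a1, by the fibrillar, basement membrane, beaded filament and fibril-associated classes and by all other collagen genes, for DT, saline and chow livers from left to right. Col18a1 holds 49.2% to 56.3% in DT livers 1, 3 and 4 and is 76.9% or more in every other liver.

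Chains that share a trimer or a matrix were set against each other within each liver, as ratios of CPM. Col1a2 over Col1a1 was 0.958, 1.15, 0.944 and 0.944 in the DT livers, against 1.81, 1.46, 1.42 and 1.28 in the saline livers and 1.20, 1.62 and 1.77 in the chow livers. All 4 DT livers, liver 2 included, were below all saline livers (exact two-sided permutation p = 0.0286, the smallest that 4 against 4 allows). Col4a1 over Col1a1 was 1.86, 3.61, 1.65 and 1.74 in the DT livers, against 8.46, 7.11, 3.63 and 5.58 in the saline livers and 12.8, 9.21 and 8.85 in the chow livers. Here too the groups did not overlap, though DT liver 2 and saline liver 3 nearly met (exact permutation p = 0.0286). Over the 8 ratio tests both had a Benjamini-Hochberg adjusted p of 0.114. With so few livers no ratio could reach an adjusted p below 0.05, so the adjusted values decide nothing. Col3a1 over Col1a1 (exact permutation p = 0.0857) and Col4a2 over Col4a1 (exact permutation p = 0.200) overlapped between DT and saline livers. Col4a2 over Col4a1 was 0.691 to 0.843 in saline livers and 0.656 to 0.802 in DT livers, against 0.975 to 1.05 in chow livers. In saline against chow livers this ratio and Col4a1 over Col1a1 did not overlap (exact permutation p = 0.0571 each, the smallest that 4 against 3 allows). Col3a1 over Col1a1 (exact permutation p = 0.171) and Col1a2 over Col1a1 (exact permutation p = 0.857) overlapped there.

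The second comparison asked what the diet with alcohol changed when the mice received saline. In saline against chow livers 1 of the 34 collagen genes rose, 2 fell and 31 were not called. The share called was 8.82%, against 5.58% of all tested genes (2.45% that rose and 3.13% that fell), so it lies near the background. At an unadjusted p below 0.05 there were 9 genes, against 20.9% of all genes. The count depended on the fit. With only the saline and chow livers fitted, 10 of 30 tested genes were called (33.3%, against 20.1% of all genes), and without DT liver 2 in the fit 9 of 34 were (26.5%, against 11.4%). DESeq2 called 7 of 34 (20.6%, against 10.7%), and limma-voom called 0, where 4.18% of all genes were called. Groups did not overlap for 11 genes that were higher and 5 that were lower in saline livers, where 14.8% and 15.6% of all genes were so separated.

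The gene that rose was Col23a1, a transmembrane collagen, at 0.856, 0.854, 0.439 and 0.894 CPM in the saline livers, against 0.309, 0.327 and 0.231 CPM in the chow livers (1.39, SE 0.35, edgeR adjusted p = 0.0432). The genes that fell were Col7a1 (-2.21, SE 0.47, edgeR adjusted p = 0.0199) and Col20a1 (-1.67, SE 0.39, edgeR adjusted p = 0.0295), whose values by liver are given above. In all 3 the saline livers were separate from the chow livers. None of the 3 calls was kept in every refit without 1 liver, and the highest adjusted p was 0.149 for Col23a1, 0.10 for Col7a1 and 0.0955 for Col20a1. Exons of Col20a1 share 79 bases with a gene on the same strand, BX649560.1, so its counts are uncertain.

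The type I and III chains had higher values in saline livers that did not pass the test. Col3a1 averaged 27.9 ± 16.5 CPM in saline livers and 9.03 ± 2.84 CPM in chow livers (SD, n = 4 and 3), a log2 fold change of 1.62 (SE 0.56, edgeR adjusted p = 0.120). Col1a1 averaged 8.79 ± 4.17 CPM in saline livers and 3.91 ± 0.74 CPM in chow livers (1.17, SE 0.57, edgeR adjusted p = 0.272). For both genes every saline liver was above every chow liver. Col12a1 and Col14a1 came nearest to a call, at 1.16 (SE 0.32) and 1.02 (SE 0.29), each with an edgeR adjusted p of 0.0599. Col18a1 was lower in all 4 saline livers than in any chow liver, with a log2 fold change of -0.30 (SE 0.17, edgeR adjusted p = 0.348). The type IV chains Col4a1 (0.30, SE 0.35) and Col4a2 (-0.07, SE 0.32) were within their spread.

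Against chow livers, DT livers showed 21 collagen genes that rose and 3 that fell, with 23% of all genes called (14.8% that rose and 8.16% that fell). The genes that fell were Col13a1 (-1.06, SE 0.29, edgeR adjusted p = 0.0232), Col18a1 (-0.56, SE 0.17, edgeR adjusted p = 0.0346) and Col24a1 (-1.70, SE 0.55, edgeR adjusted p = 0.0453). For Col18a1 and Col13a1 all 4 DT livers were below all 3 chow livers. None of these 3 calls held throughout. In the 11 refits without 1 liver the call was kept in 7 for Col13a1, 3 for Col18a1 and 1 for Col24a1. All 3 ended with only the DT and chow livers fitted, and those on Col18a1 and Col24a1 also under upper quartile and total count scaling. Col1a1 had a log2 fold change of 4.01 (SE 0.64, edgeR adjusted p = 0.00361) and Col14a1 one of 1.56 (SE 0.29, edgeR adjusted p = 0.00568). The multiplexin Col15a1 rose by 1.49 (SE 0.39, edgeR adjusted p = 0.0208), a call kept in 8 of 11 refits without 1 liver. Col7a1, Col20a1, Col5a3, Col6a6, Col4a2, Col4a3 and Col9a3, which rose against saline livers, were not called against chow livers. Col4a2 only just missed (0.98, SE 0.33, edgeR adjusted p = 0.05002) and was called in 6 of 10 other settings.

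Enzymes and chaperones that make collagen were read from a list of 31 genes, of which 29 were tested. In DT against saline livers 16 rose, 1 fell and 12 were not called, a share of 58.6% against 21.9% of all genes. Lox and Loxl1, which crosslink collagen and elastin, rose by 3.15 (SE 0.68) and 3.05 (SE 0.52). Lox passed the filter only with the DT livers, which favours a rise. Loxl1 stood at 20.6, 3.33, 17.4 and 25.1 CPM in the DT livers, against 1.39, 1.79, 3.05 and 1.79 CPM in the saline livers. P3h3, a prolyl hydroxylase of the collagen chains, rose by 1.60 (SE 0.29, edgeR adjusted p = 0.00718) and Pcolce, which speeds removal of the procollagen C-propeptide, by 1.53 (SE 0.29, edgeR adjusted p = 0.00799). Pcolce2, its relative, fell by 2.12 on the log2 scale (SE 0.28, edgeR adjusted p = 0.00321), at 0.424 to 0.687 CPM in DT livers, against 1.79 to 2.85 CPM in saline livers. Serpinh1, the collagen chaperone HSP47, rose by 1.20 (SE 0.31, edgeR adjusted p = 0.0200). The abundant hydroxylase subunit P4hb (-0.34, SE 0.14) and the hydroxylases P4ha1 (0.23, SE 0.23) and Plod1 (-0.35, SE 0.18) were not called. Lox, Serpinh1, P4hb, P4ha1 and Plod1 were picked for naming after their values were seen.

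In saline against chow livers no gene of this list rose, and P3h1 (-0.76, SE 0.12, edgeR adjusted p = 0.00622) and Bmp1, a procollagen C-proteinase (-0.80, SE 0.16, edgeR adjusted p = 0.0167), fell, a share of 6.9% that lies near the 5.58% of all genes. Of 9 tested collagen receptors and uptake genes, 4 rose in DT against saline livers (44.4%, against 14.3% of all genes): Ddr1 (3.58, SE 0.71), Mrc2 (3.03, SE 0.60), Itga2 (2.95, SE 0.78) and Itga11 (2.91, SE 0.62). DT liver 2 lay inside the saline range for all of them. Itga11 passed the filter only with the DT livers, which favours a rise. For Itga2, saline livers (0.0814 to 0.329 CPM) were below chow livers (1.11 to 2.15 CPM). Against chow livers Itga2 was not called in DT livers (0.09, SE 0.75). Of 6 proteases that degrade collagen 3 rose, a share of 50% against 14.3%. The gelatinase Mmp2 (3.32, SE 0.60, edgeR adjusted p = 0.00690), its activator Mmp14 (0.74, SE 0.18) and Ctsk, coding for cathepsin K (2.30, SE 0.46), rose. Mmp8, the neutrophil collagenase, had a log2 fold change of 2.67 (SE 1.03) and was not called. It too passed the filter only with the DT livers.

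**Figure D5:**
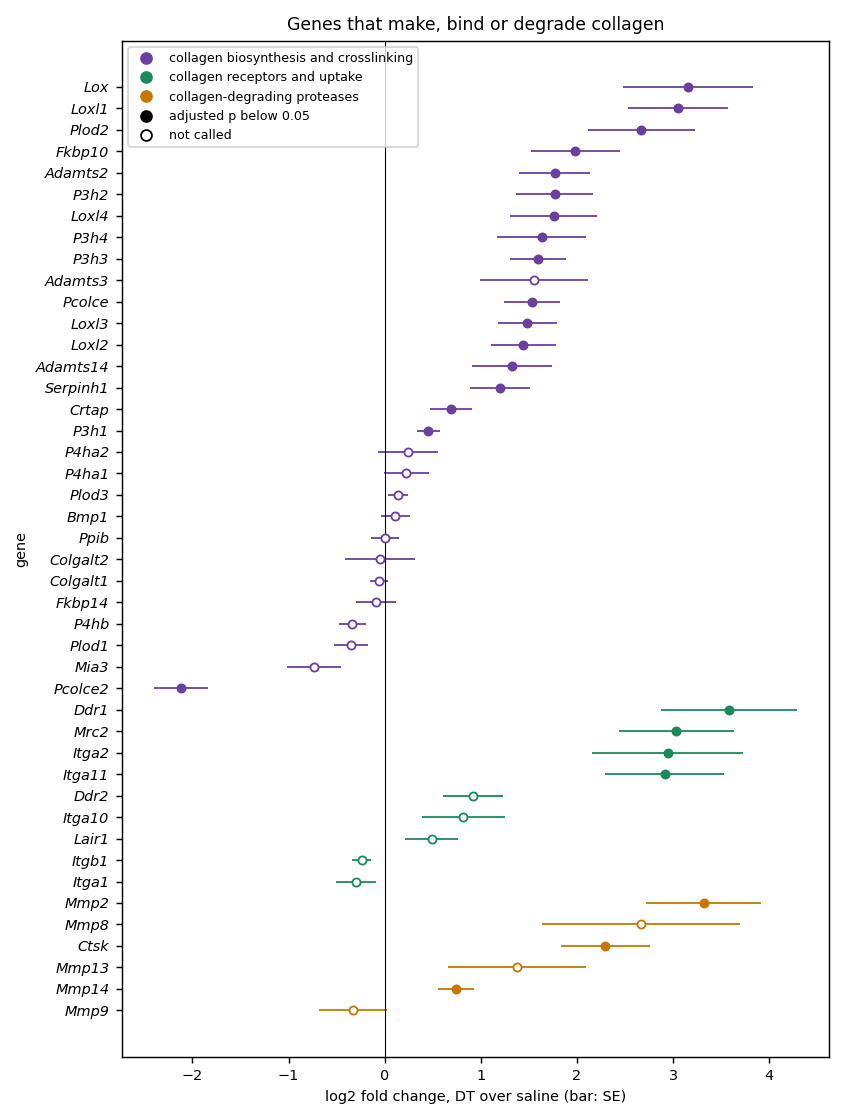
The log2 fold change of DT over saline livers is plotted with its SE for the tested genes of collagen biosynthesis and crosslinking, of collagen receptors and uptake, and of collagen-degrading proteases, filled where the adjusted p was below 0.05. Lox and Loxl1 lie at 3.15 and 3.05 at the top of the first list, and Pcolce2 at -2.12 at its foot.

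Markers of cells that make collagen, and of other cells that whole liver holds, were read in DT against saline livers, where 14.3% of all genes rose and 7.62% fell. Some lists rose with the collagen genes, while hepatocyte and sinusoidal endothelial markers did not. All 6 cholangiocyte markers rose, and their summed level was 85.0, 8.89, 56.8 and 95.8 CPM in the DT livers, against 3.88 to 7.72 CPM in the saline livers and 9.91 to 18.4 CPM in the chow livers. Portal fibroblast markers rose in 4 of 6 cases (Cd34, Gli1, Eln and Fbln2), with sums of 75.5, 15.4, 55.3 and 64.2 CPM in the DT livers, against 8.28 to 12.1 CPM in the saline livers and 6.10 to 6.77 CPM in the chow livers. For both lists DT liver 2 was far below the other DT livers, as it was for the type I and type VI chains and Col4a3 to Col4a6. Stellate cell markers rose in 4 of 7 cases (Des, Pdgfrb, Dcn and Hand2), with sums of 249 to 465 CPM in DT livers, against 175 to 320 CPM in saline livers and 143 to 183 CPM in chow livers, while the stellate markers Lrat and Reln were not called.

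Myofibroblast markers rose in 3 of 4 cases (Acta2, Tagln and Cnn1) and smooth muscle markers in 3 of 3 (Myh11, Cnn1 and Des). The remaining myofibroblast marker, Postn, was not called, with a log2 fold change of -0.245. The sums of these 2 lists did not leave DT liver 2 behind. Cnn1 stands in both of these lists, and Des is also one of the stellate cell markers, so the lists are not independent. The myofibroblast sum was 25.1, 31.4, 21.8 and 14.7 CPM in the DT livers, against 8.22 to 18.5 CPM in the saline livers and 6.05 to 8.00 CPM in the chow livers. The smooth muscle sum was 28.4, 21.1, 18.6 and 16.3 CPM in the DT livers, against 5.28 to 9.66 CPM in the saline livers and 5.20 to 6.37 CPM in the chow livers. In DT liver 2 the first sum was thus above, and the second within, the range of the other DT livers, while Col1a1 was below it. Mesothelial markers rose in 2 of 4 cases (Wt1 and Krt19, of which Krt19 also marks cholangiocytes), with sums of 2.73 to 15.1 CPM in DT livers, against 0.611 to 2.01 CPM in saline livers and 0.461 to 1.15 CPM in chow livers. Of sinusoidal endothelial markers 2 of 5 fell (Stab2 and Oit3), with sums of 168 to 221 CPM in DT livers, against 235 to 261 CPM in saline livers and 234 to 253 CPM in chow livers. Of vascular markers 1 of 4 rose (Vwf), and of hepatocyte markers 1 of 5 fell (Cyp2e1). The part of these cell types in the collagen changes was not tested.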

How the data were processed

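RNA was measured by poly(A) sequencing in 11 whole livers. The tools FastQC, STAR and featureCounts and the build GRCm39 are named in the submitters' processing notes. Their versions, the annotation and the strand setting are not given in the sources used here. The extraction text describes sorted CD45-positive cells for single-cell work, while the tissue labels name whole liver. The deposited values are raw counts per gene from the authors, 55414 genes in 1 column per library. Of counts from 1 to 20, 76.6% to 81.5% were even in a library, and halved counts were tried for that reason. The labels number replicates and do not say that each is a separate mouse, so p-values measure the spread between these samples. Intervals of detection cover counting error only.

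Genes were kept with filterByExpr (0.190 CPM in 3 libraries), which left 17038 of 28842 genes with any count. With TMM factors, quasi-likelihood models were fitted robustly in edgeR 4.0.16 under R 4.3.3 (limma 3.58.1), 1 mean for each of the 3 groups. Replicates varied by 30.1% (common biological coefficient of variation), with residual degrees of freedom of 8. Testing was two-sided with Benjamini-Hochberg adjustment over all genes at 0.05. The SE of a log2 fold change is its size over the square root of the F statistic. Ratios of 2 genes were tested on log2 CPM with a prior count of 2 by exact permutation. The calling was tested on simulated data.

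Symbols of the counted genes were those deposited with the counts. Exon lengths were those of GENCODE M21 (GRCm38), matched by Ensembl identifier, so exon lengths and overlaps are of an earlier build than the alignment. Promoter windows are from RefSeq. The collagen genes, their classes, the companion and marker lists and the alternatives were chosen with earlier results of these data known. Values by liver were given for 9 fixed genes (Col1a1, Col1a2, Col3a1, Col4a1, Col4a2, Col5a1, Col6a3, Col15a1, Col18a1), for up to 3 genes per class with the smallest p in DT against saline, for genes called in saline against chow, for genes lower in DT livers at an unadjusted p below 0.05, and for genes with a mean of at least 5 CPM in a group. Of these, Col25a1 and Col27a1 were given as ranges, and some others without values for the chow livers. Up to 4 companion genes per list were named by p. Other genes were named after their values were seen. Alternatives were RLE, upper quartile and total count scaling, DESeq2 1.42.0, limma-voom, no filter, 1 CPM in 3 libraries, only the compared groups, the replicate number as a block, halved counts, and each of the 11 livers left out.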

Additional observations from a re-analysis of the deposited data

Results flagged for a closer look

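Single livers were set against the rest of their group for the 34 tested collagen genes in the DT and saline groups, 68 groups in all, and 3 held a liver whose gap to its nearest neighbour was over 0.829 of the whole range. Chance alone marks about 1 in 20 groups, and 3 of 68 is 4.41%. Col3a1 was at 52.5 CPM in saline liver 3, against 17.8 to 21.0 CPM in the other saline livers. Col23a1 was at 0.439 CPM in saline liver 3, against 0.854 to 0.894 CPM in the other saline livers. Col14a1 was at 44.7 CPM in DT liver 2, against 88.5 to 96.5 CPM in the other DT livers.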

How the results depend on the processing

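Of 2104 refitted values of the 34 tested collagen genes, 1867 kept their direction and their side of the threshold, 154 lost the call, 48 gained one and 35 changed sign. No gene called in the same comparison changed sign. Genes with very few counts, such as Col22a1 and Col24a1, limit what this depth can show.

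In DT against saline livers the 24 collagen calls became 14 to 30 when 1 liver was left out, lowest without DT liver 4 and highest without DT liver 2, and the 3734 calls over all genes became 1786 to 6824, 5629 under total count scaling and 2303 with only the compared groups. In saline against chow livers the 3 collagen calls became 0 to 9 without 1 liver (9 without DT liver 2, and 0 or 1 without any one saline or chow liver), 7 with DESeq2, 0 with limma-voom and 10 with only the compared groups. The 950 calls over all genes became 287 to 1924 without 1 liver, 1831 with DESeq2 and 3105 with only the compared groups. In DT against chow livers the 24 collagen calls became 15 to 26 without 1 liver (15 without chow liver 3), and the 3919 calls over all genes became 1786 to 6834 without 1 liver, 6536 under total count scaling and 2089 with only the compared groups.

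Same-numbered DT and saline livers correlated at 0.08, 0.17, 0.18 and -0.16 in their deviations from the group means. DT liver 2 correlated slightly more closely with saline liver 4 (0.19) than with saline liver 2 (0.17). These few correlations do not settle whether the numbers pair the livers, and the main fit used no pairing. With the replicate number as a block, 22, 0 and 17 collagen genes and 2842, 559 and 2210 genes in all were called in DT against saline, saline against chow and DT against chow.

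Total count scaling moved the median log2 fold change of all genes to 0.36 in DT against saline, 0.13 in saline against chow and 0.44 in DT against chow livers. Of called genes, 92.1% were then higher in DT than in saline livers, against 65.2% under TMM, 67% against 43.9% in saline over chow, and 94.8% against 64.5% in DT over chow. Upper quartile factors gave 75.7% and 77.6% for the comparisons with DT, moving the first median to 0.11, and limma-voom 53.1% and 50.6%.

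Signs turned only for differences that were not called. In DT against saline livers Col13a1 turned to 0.0095 and Col18a1 to 0.054 under total count scaling, and without 1 liver Col27a1 ran from -0.056 to 0.40 and Col12a1 from -0.021 to 0.33. In saline against chow livers Col24a1 turned to 0.0013 with RLE factors, 0.11 under total count scaling, 0.000254 with DESeq2 and 0.0082 with limma-voom, Col4a2 to 0.055 under total count scaling, Col4a4 to -0.061 with limma-voom and -0.28 with the replicate block, and Col6a5 to 0.49 with limma-voom. Without 1 liver, Col24a1 ran from -0.36 to 0.36, Col4a2 from -0.21 to 0.038, Col4a4 from -0.23 to 0.17, Col25a1 from -0.48 to 0.029, Col4a5 from -0.031 to 0.70, Col6a5 from -1.02 to 1.43, Col22a1 from -0.29 to 3.29, and the log2 ratio of Col1a2 to Col1a1 from -0.20 to 0.082. In DT against chow livers Col11a2 turned to 0.043 with upper quartile factors and 0.44 under total count scaling, and ran from -0.33 to 0.22 without 1 liver. The cause was not tested in any of these cases.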
